A study of Danio rerio with 9 samples.

Results

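Zebrafish embryos that were homozygous for a mutant npc2 allele were compared with their heterozygous siblings over every gene counted, which uses 6 of the 9 RNA samples of the study. The homozygous embryos (MZnpc2m/m) were maternal-zygotic mutants. The heterozygous embryos (Mnpc2+/m) were maternal mutants that carried 1 wild-type copy in their own genome. Both came from the same crosses, so the mothers' genotype was the same for both groups and the difference between them was the zygotic copy of npc2. The comparison therefore asks what the loss of that zygotic copy changes when both groups lack the maternal product of a wild-type mother. The remaining 3 samples were wild-type embryos (npc2+/+), from npc2+/+ parents that were themselves siblings of the mutant parents. They therefore differed from both mutant groups in mother and clutch as well. All embryos were collected at 30 hours post fertilisation, each sample was a pool of 30 embryos, and each genotype had 3 pools. Per the labels, the siblings were told apart by their phenotype, so that genotype and visible phenotype go together in every value given here. The labels do not say whether the pools came from separate clutches or days, and p-values therefore measure the spread between these pools only.

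NPC2 is a small soluble protein of the lysosome, the compartment in which cells digest material they have taken up. It binds cholesterol released from lipoproteins and passes it to the membrane protein NPC1, through which cholesterol leaves the lysosome. When either protein is missing in mammals, cholesterol is held in lysosomes while the endoplasmic reticulum, where the cell senses its cholesterol, receives less of it. In that state the transcription factor SREBP2 is released and switches on the genes of cholesterol synthesis and uptake, whereas the sterol-sensing receptor LXR drives genes of cholesterol export when sterols are plentiful. Loss of NPC1 or NPC2 in people causes Niemann-Pick disease type C, which affects the liver and the nervous system.

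Polyadenylated RNA was sequenced, and the deposited values were read counts per gene, with 42535508 to 69360234 counts in the homozygous pools and 55144480 to 65070813 in the heterozygous pools. Levels are given as CPM, the count as a share of the library size after TMM scaling, always in the order of replicates 1, 2 and 3. A gene was called changed when the adjusted p of edgeR's quasi-likelihood test was under 0.05 over the 20375 genes that had enough counts. By this rule 8101 genes (39.8%) differed between the siblings, 4155 (20.4%) being higher and 3946 (19.4%) lower in homozygous pools. Those changed at least 2-fold were fewer, with 716 (3.51%) higher and 240 (1.18%) lower in homozygous pools. In 10432 genes (51.2%) the 3 pools of one genotype all lay above the 3 of the other. The first principal component of the 6 pools held 54.8% of the variance and separated the genotypes. The second held 14.1% and set the third pool of each genotype apart from the other two. With so many genes called, the share of a gene list that rose or fell is read against these background shares. Symbols in capitals are those of the gene name table, where several zebrafish genes can carry 1 symbol, and the gene identifier is then given.

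**Figure D1:**
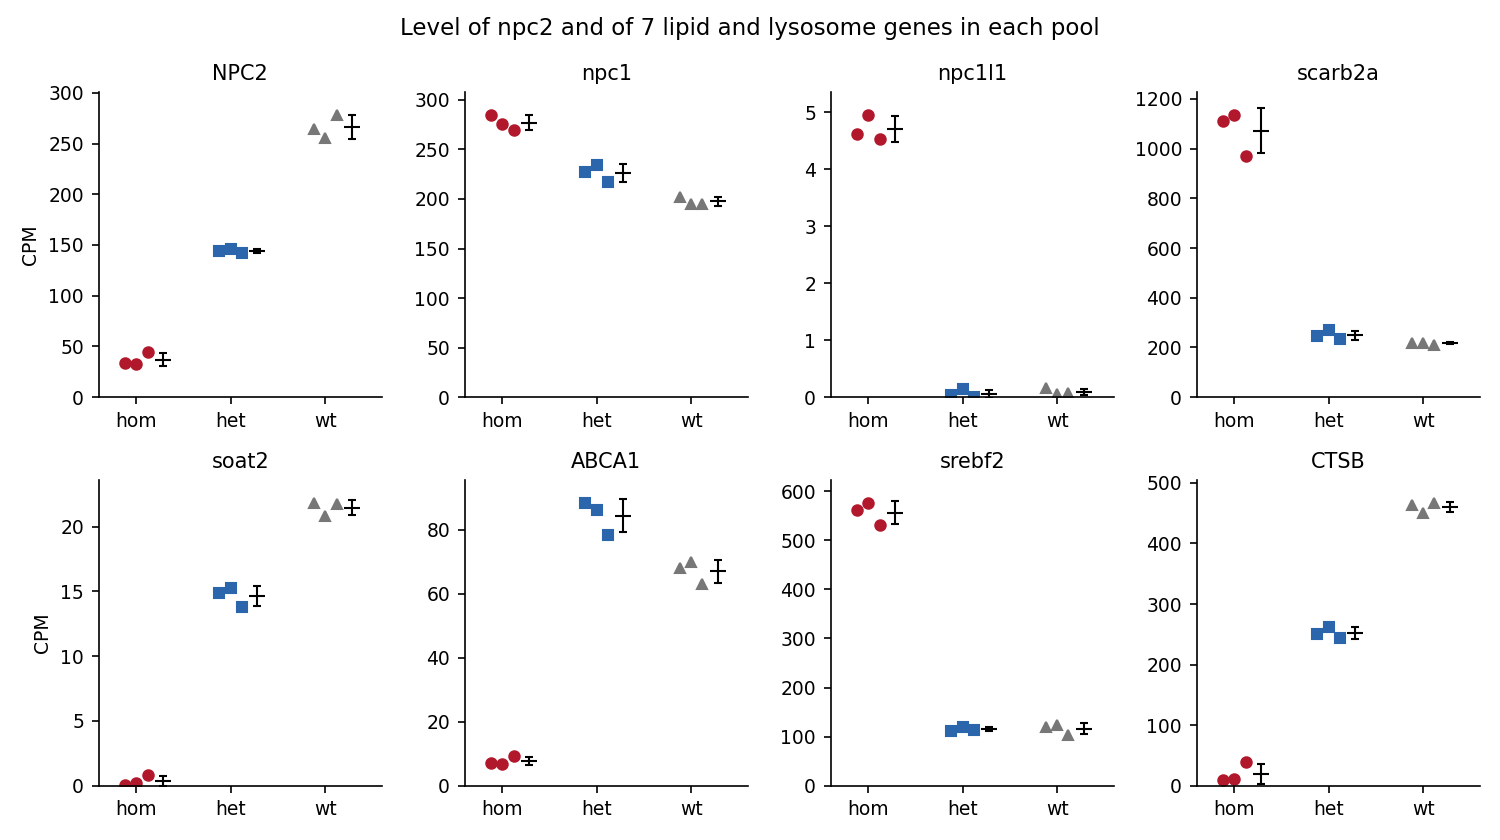
Level in CPM (linear axes) of NPC2 and 7 genes of lipid handling and the lysosome in the 3 homozygous (hom), 3 heterozygous (het) and 3 wild-type (wt) pools. Points are pools, and the bars give the mean ± SD (n = 3). NPC2, soat2, ABCA1 and CTSB lay lower in all homozygous pools, and npc1, npc1l1, scarb2a and srebf2 higher, than in every heterozygous pool.

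The mutated gene itself (ENSDARG00000090912, listed as NPC2) had 34.1, 32.6 and 44.3 CPM in the homozygous pools, against 144, 146 and 142 CPM in the heterozygous pools and 264, 256 and 279 CPM in the wild-type pools. No 2 genotypes overlapped, and homozygous pools kept a measurable level of the transcript. The log2 fold change between siblings was -1.97 ± 0.10 (SE; edgeR adjusted p = 1.16e-07). The third homozygous pool was the highest of the 3. A second gene listed under the same symbol (ENSDARG00000096979) had 1.084, 1.19 and 1.36 CPM in the homozygous pools, against 2.01, 1.35 and 0.869 CPM in the heterozygous pools. These ranges overlapped, and the log2 fold change was -0.23 ± 0.25 (SE; edgeR adjusted p = 0.505). npc1, the partner that moves cholesterol across the lysosomal membrane, had 285, 276 and 270 CPM in the homozygous pools, against 227, 235 and 217 CPM in the heterozygous pools, a rise of 0.29 ± 0.04 on the log2 scale (SE; edgeR adjusted p = 4.74e-05). npc1l1, which encodes the transporter that takes up dietary cholesterol at the gut surface, had 4.62, 4.96 and 4.53 CPM in the homozygous pools, against 0.0309, 0.135 and 0 CPM in the heterozygous pools. It was thus near 0 in heterozygous pools and present in every homozygous pool (edgeR adjusted p = 1.70e-07), and its fitted log2 change of 6.35, or 7.97 without the second heterozygous pool, depends on how the near-zero counts are treated. scarb2a encodes a membrane protein that carries glucocerebrosidase to the lysosome. It had 1112, 1137 and 969 CPM in the homozygous pools, against 246, 269.9 and 234 CPM in the heterozygous pools, a 4.29-fold rise (log2 2.1 ± 0.06, SE; edgeR adjusted p = 8.77e-13). Of the 14 tested genes of lysosomal cholesterol egress, 7 were higher and 1, npc2 itself, lower in homozygous pools, with a median log2 fold change of 0.21 against 0.005 over all genes.

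The enzymes of cholesterol synthesis rose almost throughout. Of 23 tested genes 21 were higher in homozygous pools, 20 of them at least 2-fold, 1 was lower and 1 was not called, with a median log2 fold change of 3.04. In the first committed steps, hmgcs1, which builds HMG-CoA, had 824, 834 and 748 CPM in the homozygous pools, against 73.3, 75.3 and 75.99 CPM in the heterozygous pools. The lowest homozygous pool was far above the highest heterozygous pool, a 10.7-fold rise (log2 3.42 ± 0.06, SE; edgeR adjusted p = 4.24e-17).

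Further along the mevalonate branch, mvk (mevalonate kinase) had a log2 fold change of 2.62, MVD (mevalonate diphosphate decarboxylase) 3.22, idi1 (isopentenyl diphosphate isomerase) 1.88 and fdps (farnesyl diphosphate synthase) 2.43. fdps had 565, 548 and 537 CPM in the homozygous pools, against 100.1, 106 and 100.3 CPM in the heterozygous pools. acat2, which feeds the pathway with acetoacetyl-CoA, rose by 1.65. ggps1, which diverts intermediates to protein prenylation rather than to sterols, rose by 0.34, the smallest rise of the list. The first sterol-specific steps rose more. fdft1, squalene synthase, had 104, 102 and 101 CPM in the homozygous pools, against 10.3, 10.5 and 12.2 CPM in the heterozygous pools, and its log2 fold change was 3.22 ± 0.08 (SE). SQLE (ENSDARG00000079946), squalene epoxidase, had 208, 212 and 198 CPM in the homozygous pools, against 21.5, 19.99 and 18.97 CPM in the heterozygous pools (log2 3.35 ± 0.06, SE; edgeR adjusted p = 1.12e-16). lss, which closes the rings to make lanosterol, had 103, 99.4 and 95.9 CPM in the homozygous pools, against 6.27, 5.099 and 6.48 CPM in the heterozygous pools, a 16.7-fold rise. In each of these genes all 3 homozygous pools lay above all 3 heterozygous pools.

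From lanosterol onwards, CYP51A1, the 14-alpha demethylase, rose by 3.35 on the log2 scale. msmo1, the C4 methyl oxidase, had 42.96, 44.2 and 39.4 CPM in the homozygous pools, against 1.82, 2.296 and 2.21 CPM in the heterozygous pools, a 20.04-fold rise. nsdhl and hsd17b7, which complete the removal of the C4 methyl groups, rose by 3.09 and 2.61. The isomerase ebp rose by 3.01, its relative ebpl by 2.19 and the desaturase sc5d by 3.38. dhcr7, which makes cholesterol in the final step of the Kandutsch-Russell branch, had 195, 201 and 182 CPM in the homozygous pools, against 22.4, 23.5 and 24.3 CPM in the heterozygous pools (log2 3.04 ± 0.06, SE; edgeR adjusted p = 1.51e-16). The C14 reductases went apart. tm7sf2 rose by 3.28, whereas lbr, which is also a protein of the inner nuclear membrane, had 198, 200.1 and 197 CPM in the homozygous pools, against 255, 243 and 239 CPM in the heterozygous pools. lbr was the list's single fall, at -0.31 ± 0.04 (SE; edgeR adjusted p = 1.71e-05).

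**Figure D2:**
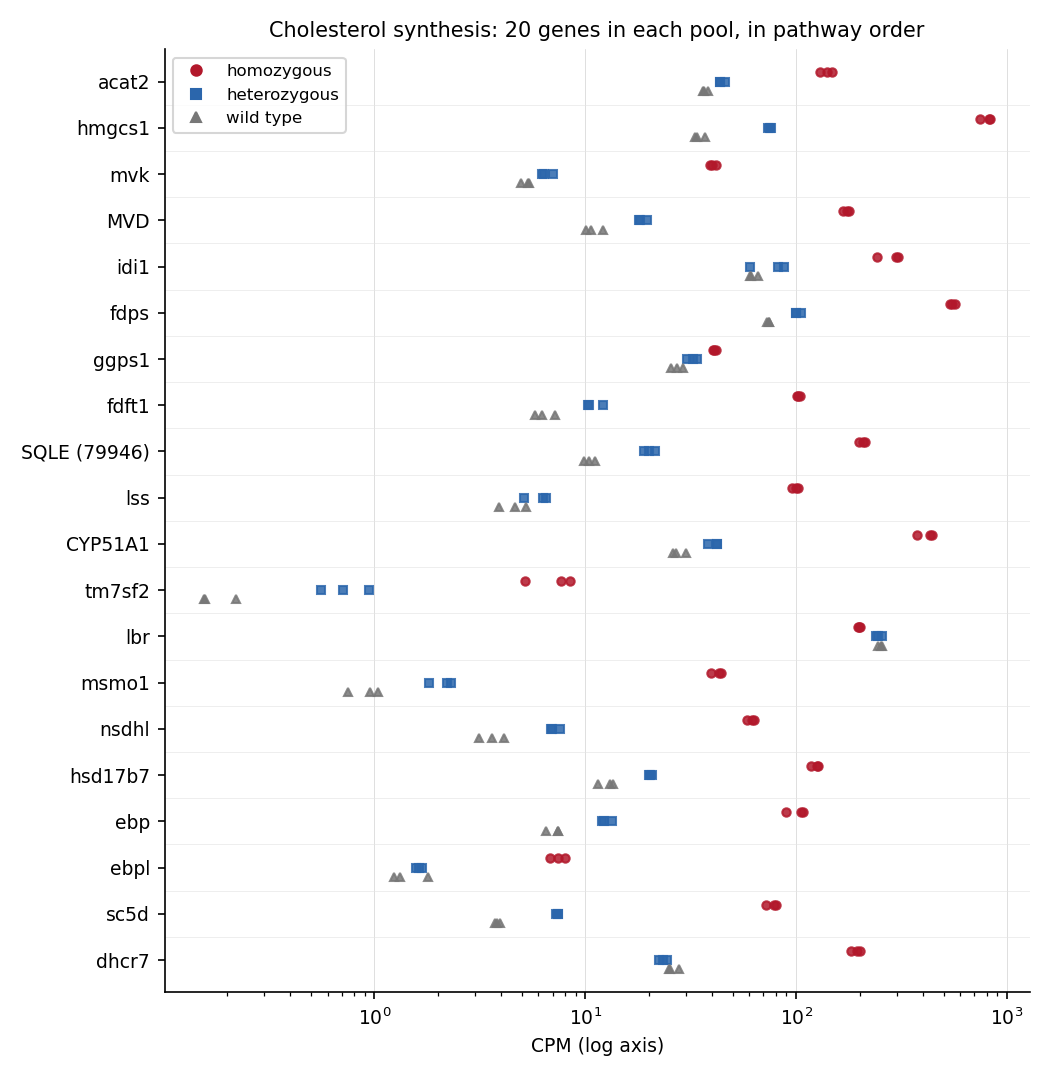
Level in CPM (log axis) of 20 of the 23 tested genes of cholesterol synthesis, in pathway order, in the 3 homozygous, 3 heterozygous and 3 wild-type pools. The other tested genes are counted in the text but not drawn. Each symbol is 1 pool, and digits in brackets are the end of the gene identifier. The homozygous pools lie to the right of the heterozygous pools in every row but that of lbr.

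The regulators of the pathway and of lipoprotein uptake split. Of 18 tested genes 9 were higher and 5 lower in homozygous pools. srebf2, which encodes the precursor of SREBP2, had 563, 576 and 531 CPM in the homozygous pools, against 111, 119 and 114 CPM in the heterozygous pools, and the groups did not overlap. Its rise was 4.85-fold (log2 2.28 ± 0.06, SE; edgeR adjusted p = 4.59e-14). srebf1, which favours genes of fatty acid synthesis, rose by 0.88 ± 0.13 (SE). The low-density lipoprotein receptor genes rose as well. ldlrb had 272, 267 and 246 CPM in the homozygous pools, against 90.1, 86.1 and 80.7 CPM in the heterozygous pools (log2 1.61 ± 0.06, SE), and ldlra had 4.85, 5.18 and 5.24 CPM in the homozygous pools, against 0.463, 0.304 and 0.434 CPM in the heterozygous pools. stard4, a cytosolic sterol carrier, rose by 1.72 and tmem97, a sterol-responsive membrane protein, by 2.38. scap, the escort of SREBP, was lower by a small amount (-0.29 ± 0.08, SE; edgeR adjusted p = 0.00602).

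Several genes that act on receptor removal, export and esterification fell. MYLIP (ENSDARG00000008859), a ubiquitin ligase that removes the low-density lipoprotein receptor, had 3.25, 2.98 and 3.46 CPM in the homozygous pools, against 14.4, 13.98 and 12.7 CPM in the heterozygous pools. No homozygous pool reached the heterozygous range (log2 -2.09 ± 0.09, SE; edgeR adjusted p = 1.05e-11). ABCA1 (ENSDARG00000074635), the pump that loads cholesterol onto apolipoproteins, had 6.98, 6.79 and 9.21 CPM in the homozygous pools, against 88.3, 86.2 and 78.4 CPM in the heterozygous pools. Homozygous pools held 0.0898 of the heterozygous level (log2 -3.48 ± 0.10, SE; edgeR adjusted p = 1.16e-11). Its paralogue abca1b did not share that fall and had 509.5, 479 and 519 CPM in the homozygous pools, against 452, 444 and 446 CPM in the heterozygous pools (log2 0.17 ± 0.04, SE; edgeR adjusted p = 0.00435). soat2, which esterifies cholesterol for storage or secretion, had 0.0571, 0.236 and 0.795 CPM in the homozygous pools, against 14.9, 15.3 and 13.8 CPM in the heterozygous pools. All homozygous pools were below 1 CPM (log2 -5.56 ± 0.46, SE; edgeR adjusted p = 9.40e-05), and the log2 value was -4.96 without the first and -6.66 without the third homozygous pool. cetp, the cholesteryl ester transfer protein, had 2.197, 1.92 and 2.38 CPM in the homozygous pools, against 11.9, 12.3 and 10.24 CPM in the heterozygous pools, a log2 change of -2.41 ± 0.11 (SE).

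Other genes of export moved the other way or little. ABCG4 (ENSDARG00000078068), a sterol exporter of neural cells in mammals, had 12.8, 12.7 and 11.4 CPM in the homozygous pools, against 1.55, 1.32 and 1.38 CPM in the heterozygous pools (log2 3.12 ± 0.12, SE; edgeR adjusted p = 9.78e-13). lcat, which esterifies cholesterol on circulating lipoproteins, rose by 0.79 and scarb1, the receptor for high-density lipoprotein, by 0.53. cyp27a1.1, an enzyme of bile acid and oxysterol synthesis, fell to 2.996, 2.48 and 3.23 CPM in homozygous pools, against 5.07, 5.64 and 5.14 CPM in heterozygous pools. abcg1 changed by -0.81 (edgeR adjusted p = 0.0217), a call that was lost without the first heterozygous (0.0644), the second heterozygous (0.0726) or the third homozygous pool (0.0842, all edgeR adjusted p). Over the 17 tested genes of export and esterification, 5 were higher and 6 lower.

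Fatty acid genes rose more often than they fell, 13 and 2 of 18 tested. fasn, fatty acid synthase, had 64.2, 68.01 and 65.4 CPM in the homozygous pools, against 33.95, 32.99 and 37.3 CPM in the heterozygous pools (log2 0.92 ± 0.06, SE; edgeR adjusted p = 2.21e-09). ACLY (ENSDARG00000099079), which makes the acetyl-CoA used for both fatty acids and sterols, had 435, 435 and 408 CPM in the homozygous pools, against 175, 174 and 178 CPM in the heterozygous pools. scd, the desaturase that makes oleate, had 9.19, 9.27 and 7.38 CPM in the homozygous pools, against 1.081, 1.35 and 0.977 CPM in the heterozygous pools, a 7.58-fold rise. elovl2, which elongates polyunsaturated fatty acids, had 59.7, 59.1 and 61.3 CPM in the homozygous pools, against 6.67, 7.395 and 8.33 CPM in the heterozygous pools, a 8.05-fold rise. elovl5, which elongates them too, rose by 0.99. In fasn, ACLY, scd and elovl2 the genotypes did not overlap. gpam, the first enzyme of triglyceride assembly and 1 of the 2 falls, had 11.4, 13.2 and 14.3 CPM in the homozygous pools, against 24.2, 24.1 and 24.9 CPM in the heterozygous pools (log2 -0.92 ± 0.09, SE; edgeR adjusted p = 2.17e-07); it was chosen after its values were seen. acaca was called (log2 2.04), but that call was lost without any one of the 3 heterozygous pools, of homozygous pools 2 and 3, or of wild-type pool 3, and also with the replicate block, with the 6 sibling libraries alone and with no low-count filter, at edgeR adjusted p between 0.0534 and 0.123.

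Apolipoprotein and yolk lipoprotein genes were mixed, with 5 higher and 8 lower of 18 tested. apoc2, the activator of lipoprotein lipase, had 161, 158 and 152 CPM in the homozygous pools, against 373, 354 and 348 CPM in the heterozygous pools, a log2 change of -1.19 ± 0.05 (SE; edgeR adjusted p = 1.92e-12). The apoa4b genes, whose products ride on lipoproteins made by the yolk syncytial layer, fell together, with log2 fold changes of -0.32 for apoa4b.1, -0.50 for apoa4b.2 and -1.16 for apoa4b.3. apobb.1, the main structural apolipoprotein gene of the yolk lipoproteins, instead rose by 0.22 ± 0.04 (SE) and apobb.2 changed by -0.39. apoeb, an apolipoprotein E gene that is also a marker of macrophages and microglia, had 2780, 2724 and 2686 CPM in the homozygous pools, against 2819, 2918 and 2735 CPM in the heterozygous pools, with a log2 fold change of -0.05 (edgeR adjusted p = 0.336).

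Lysosomal genes rose broadly and by little. Of 42 tested hydrolase genes 27 (64.3%) were higher and 1 (2.38%) lower, beside 20.4% and 19.4% of all genes. Their median log2 fold change was 0.28. The membrane proteins had 9 (39.1%) higher and 0 lower of 23, and 14 were not called. Among them 1 was lower once the third heterozygous pool was left out. For the proton pump 10 of 21 were not called, 10 (47.6%) were higher and 1 (4.76%) was lower. That 1 was ATP6V1B2 (ENSDARG00000043465), a subunit gene of the pump named after its values were seen, with 0.0856, 0.0628 and 0.187 CPM in the homozygous pools, against 0.155, 0.169 and 1.38 CPM in the heterozygous pools (log2 -2.38 ± 0.88, SE; edgeR adjusted p = 0.0497). The third heterozygous pool stood above the other pools, and without it the gene was not called (log2 -0.59, edgeR adjusted p = 0.557). Tested in 16 of the 18 alternatives, it lost its call in 10, among them those without any one of the homozygous or wild-type pools. The autophagy list and its regulators had 20 (57.1%) higher and 1 (2.86%) lower of 35. ctsla, a cathepsin L gene, had 2187, 2166 and 2145 CPM in the homozygous pools, against 1139, 1152 and 1161 CPM in the heterozygous pools, and the groups did not overlap (log2 0.91 ± 0.04, SE; edgeR adjusted p = 1.48e-11). tpp1, a lysosomal peptidase, rose by 0.65, and smpd1, the acid sphingomyelinase, by 0.59. TFE3, a transcription factor that drives lysosomal genes together with TFEB, had 26.3, 27.3 and 25.9 CPM in the homozygous pools, against 12.8, 12.7 and 12.3 CPM in the heterozygous pools (log2 1.07 ± 0.07, SE; edgeR adjusted p = 5.02e-09), whereas the pools of tfeb overlapped, with 5.65, 6.204 and 5.28 CPM in the homozygous pools, against 6.15, 6.08 and 4.67 CPM in the heterozygous pools (log2 0.02 ± 0.12, SE; edgeR adjusted p = 0.908). sqstm1, an adaptor that brings cargo to autophagosomes, had 123.1, 130 and 116 CPM in the homozygous pools, against 62.7, 67.5 and 67.3 CPM in the heterozygous pools. wipi1 and atg9a, which act in the formation of autophagosomes, both rose by 0.94.

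The single hydrolase that fell was CTSB (ENSDARG00000055120), a cathepsin B gene named ctsba in RefSeq. It had 9.72, 10.3 and 39 CPM in the homozygous pools, against 251, 263 and 243 CPM in the heterozygous pools and 463, 451 and 467 CPM in the wild-type pools. All homozygous pools were below all heterozygous pools, and the third homozygous pool stood well above the other two. The log2 fold change was -3.74 ± 0.55 (SE; edgeR adjusted p = 0.00214), and it was -4.65 without the third homozygous pool. CTSB lies on the same chromosome as npc2 in the RefSeq assembly. ctsbb, its paralogue, had 0.371, 0.534 and 0.467 CPM in homozygous pools and no count in any heterozygous pool (edgeR adjusted p = 3.44e-05).

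**Figure D3:**
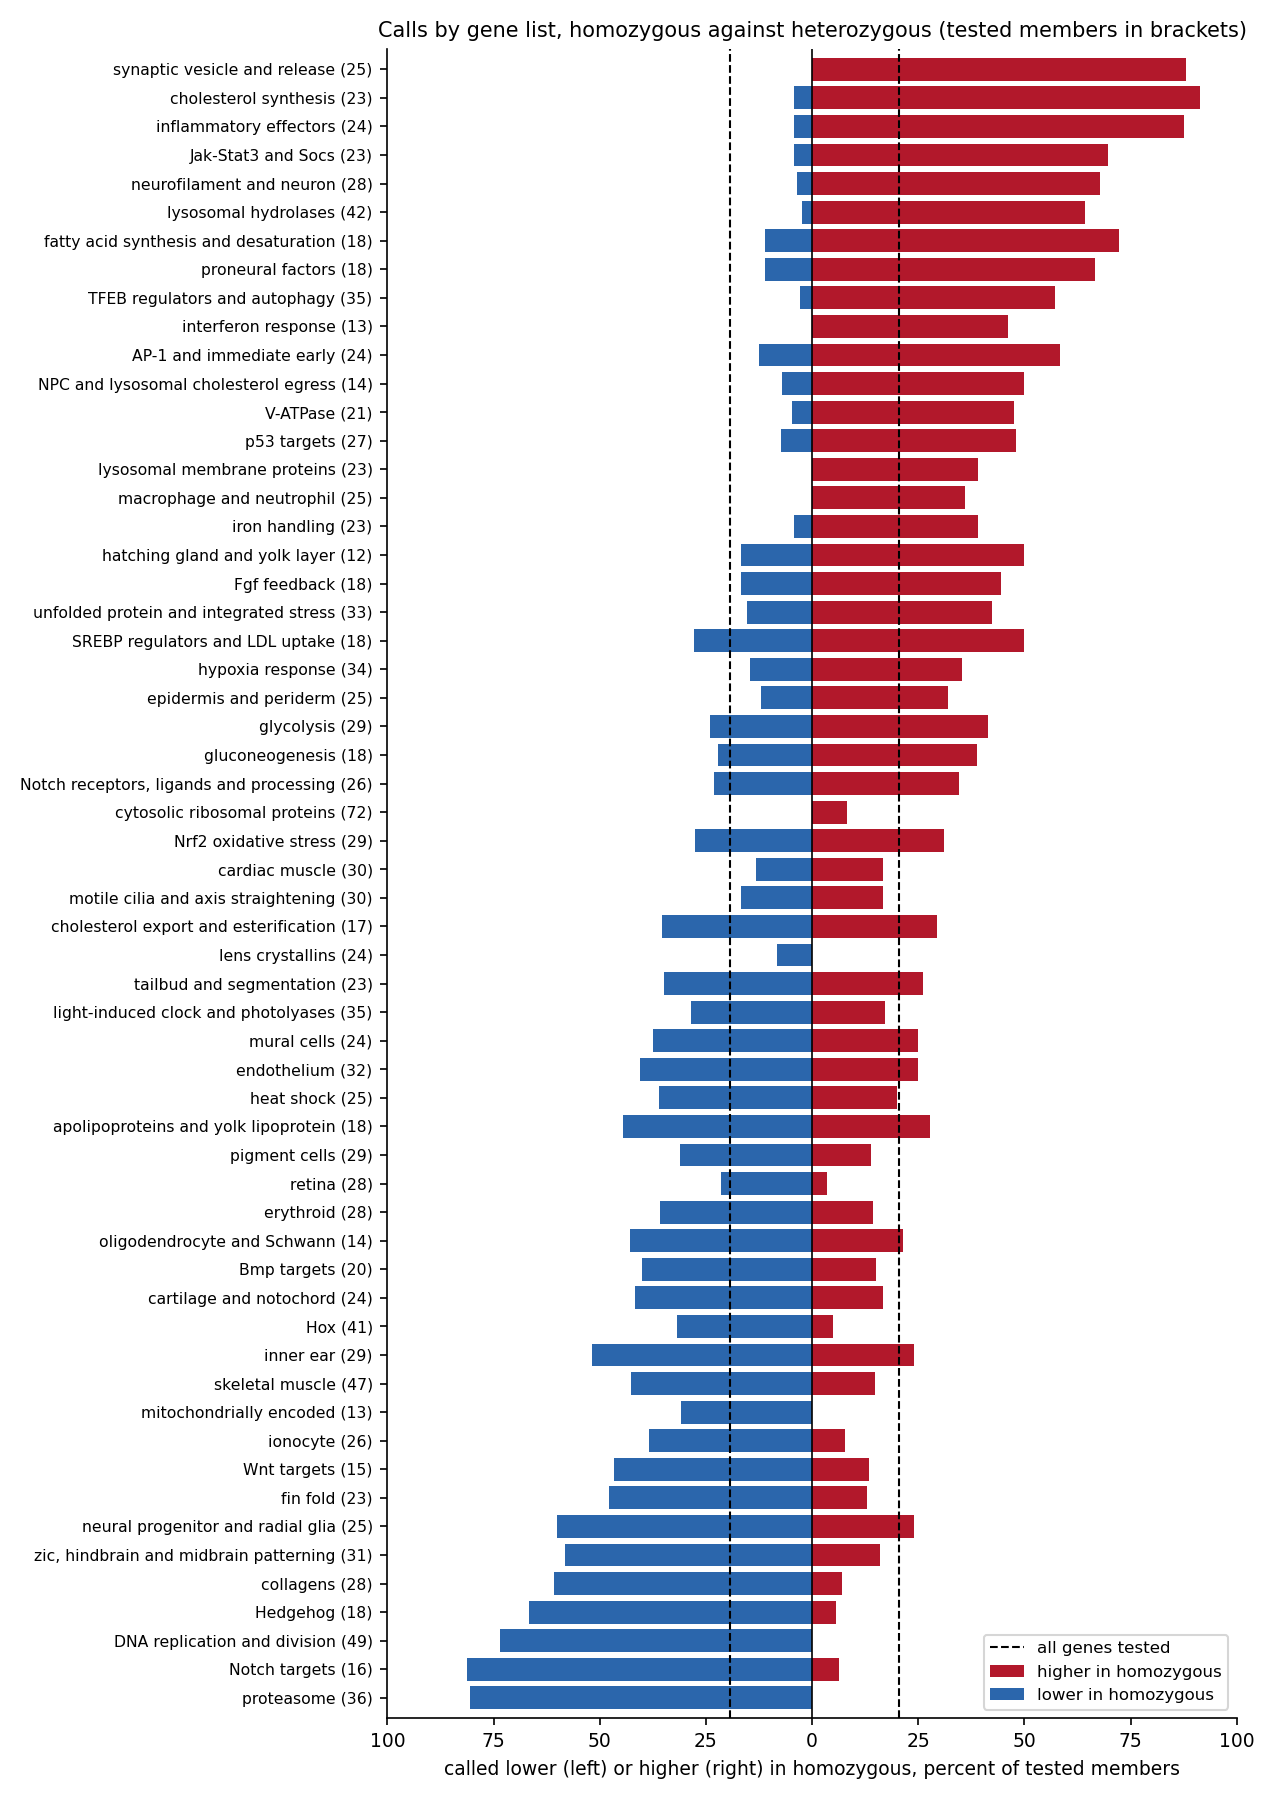
Share of the tested members of each gene list that were higher (right) or lower (left) in homozygous than in heterozygous pools, in percent. The dashed lines are the shares over all 20375 tested genes, 20.4% higher and 19.4% lower. Cholesterol synthesis, inflammatory effectors and synaptic genes stand far to the right, and Notch targets, DNA replication and the proteasome far to the left.

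Targets of Notch fell in these pools of whole embryos. Notch is a receptor by which a differentiating cell keeps its neighbours in the progenitor state, and her and hey genes are among its transcriptional outputs. Of 16 tested targets 13 were lower and 1 was higher in homozygous pools, with a median log2 fold change of -1.73, the most negative median of the 58 lists. her12 had 11.99, 12.8 and 13.8 CPM in the homozygous pools, against 107, 71.4 and 69.2 CPM in the heterozygous pools. The highest homozygous pool lay well under the lowest heterozygous pool (log2 -2.69 ± 0.20, SE; edgeR adjusted p = 4.71e-05). The her4 genes are near-identical copies in tandem, between which reads can be split arbitrarily, and are best read as a family. Their 5 gene identifiers summed to 30.1, 30.8 and 22.2 CPM in homozygous pools and to 206, 162 and 102 CPM in heterozygous pools. The 2 her15 identifiers summed to 23.3, 20.5 and 23.7 CPM in homozygous pools and to 123.1, 94.4 and 68.1 CPM in heterozygous pools. In both families the first heterozygous pool was the highest and the third the lowest, and together they make up 7 of the 13 falls. hey1 had 13.9, 14.5 and 15.4 CPM in the homozygous pools, against 46.9, 42.6 and 37.2 CPM in the heterozygous pools (log2 -1.54 ± 0.08, SE; edgeR adjusted p = 9.52e-11), and her8a had 28.9, 26.5 and 36.4 CPM in the homozygous pools, against 89.2, 91.1 and 88.5 CPM in the heterozygous pools. NRARP (ENSDARG00000018958), a feedback inhibitor of the receptor, had a log2 change of -1.28 ± 0.06 (SE). The 1 target that rose was HES2 (ENSDARG00000074897), at 0.73, and it was chosen after its values were seen; without the first heterozygous pool 2 targets rose.

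The receptors and ligands did not fall as a group, with 9 higher and 6 lower of 26. notch3 fell to 495, 499 and 524 CPM in homozygous pools, against 1089, 1064 and 994 CPM in heterozygous pools (log2 -1.05 ± 0.09, SE; edgeR adjusted p = 1.43e-05). The receptor gene NOTCH1 ENSDARG00000052094 had 137, 145 and 156 CPM in the homozygous pools, against 213, 199 and 184 CPM in the heterozygous pools, which did not overlap but was not called (log2 -0.45 ± 0.15, SE; edgeR adjusted p = 0.0581). The ligand gene dlb, which marks cells leaving the progenitor state, had 589, 581 and 537 CPM in the homozygous pools, against 291, 298 and 289 CPM in the heterozygous pools, a rise of 0.96 ± 0.04 (SE; edgeR adjusted p = 1.63e-11). dll4, a ligand of developing vessels and neurons, rose by 0.58. lfng, a glycosyltransferase that tunes the response to ligands, changed by -0.55.

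Progenitor genes were more often lower and neuronal genes more often higher. Among 25 markers of neural progenitors and radial glia 15 (60%) were lower and 6 (24%) higher, beside 19.4% and 20.4% of all genes. Changes of at least 2-fold were 2 in each direction. The markers named below are all falls. These are RNA pools of whole embryos, in which fewer cells of a type and less RNA per cell cannot be told apart, and that holds for every cell type named here. sox3, a factor that maintains neural progenitors, had 139, 136 and 158 CPM in the homozygous pools, against 391, 373 and 351 CPM in the heterozygous pools (log2 -1.36 ± 0.06, SE; edgeR adjusted p = 5.31e-12). sox19b, of the same family, had 33.2, 32.95 and 35.6 CPM in the homozygous pools, against 94.5, 90.2 and 80.7 CPM in the heterozygous pools, and sox2 had a smaller change of -0.37. gfap, an intermediate filament of radial glia, had 142, 142 and 135 CPM in the homozygous pools, against 263, 259 and 247 CPM in the heterozygous pools. SLC1A3 (ENSDARG00000104431), the glial glutamate transporter, changed by -0.88 and SOX9 (ENSDARG00000043923) by -0.92. In all of these the homozygous and heterozygous pools did not overlap. Summed over the list, the level was 2175, 2206 and 2246 CPM in homozygous pools and 2747, 2736 and 2620 CPM in heterozygous pools.

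Proneural factors, which start neuronal differentiation, were higher in 12 and lower in 2 of 18 cases. INSM1 (ENSDARG00000091756), which is switched on as progenitors leave the cycle, had 245, 247 and 235 CPM in the homozygous pools, against 118, 112 and 115 CPM in the heterozygous pools. nhlh2, of newly born neurons, had 174, 173 and 154 CPM in the homozygous pools, against 79.6, 77.7 and 68.9 CPM in the heterozygous pools. Neither overlapped between genotypes, and the log2 fold changes were 1.07 ± 0.05 for INSM1 and 1.15 ± 0.06 for nhlh2 (SE). The 2 falls were olig2 and olig3, factors of the ventral and dorsal neural tube, at -1.18 and -0.94. olig2 had 10.1, 9.05 and 12.2 CPM in the homozygous pools, against 24.1, 21.9 and 24.5 CPM in the heterozygous pools. Of 28 neuronal genes 19 were higher and 1 lower. elavl3, the RNA-binding protein Huc used to label neurons in zebrafish, had 966, 997 and 934 CPM in the homozygous pools, against 552, 538 and 523 CPM in the heterozygous pools (log2 0.84 ± 0.05, SE; edgeR adjusted p = 1.03e-09). nefma, a neurofilament subunit, had 89.8, 92.6 and 85.5 CPM in the homozygous pools, against 34.2, 33.2 and 33.5 CPM in the heterozygous pools, and INA (ENSDARG00000053248), another intermediate filament of axons, rose by 1.1. The list summed to 3273, 3322 and 3077 CPM in homozygous pools and to 2381, 2336 and 2265 CPM in heterozygous pools.

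Genes of synaptic vesicles and their release rose nearly without exception, 22 higher and 0 lower of 25, with a median log2 fold change of 0.59. vamp2, the vesicle membrane protein of the fusion machinery, had 20.3, 21.1 and 19.5 CPM in the homozygous pools, against 10.9, 12.7 and 13.4 CPM in the heterozygous pools (log2 0.72 ± 0.09, SE; edgeR adjusted p = 6.95e-06). SNAP25 (ENSDARG00000020609), its partner on the plasma membrane, had 123.2, 124 and 97.8 CPM in the homozygous pools, against 83.8, 83.5 and 66.5 CPM in the heterozygous pools. Neither gene overlapped between genotypes. SLC18A3 (ENSDARG00000006356), which loads acetylcholine into vesicles, rose by 0.82 and SLC17A6 (ENSDARG00000041150), which loads glutamate, by 0.55. The rises were thus all moderate, none reaching 2-fold.

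**Figure D4:**
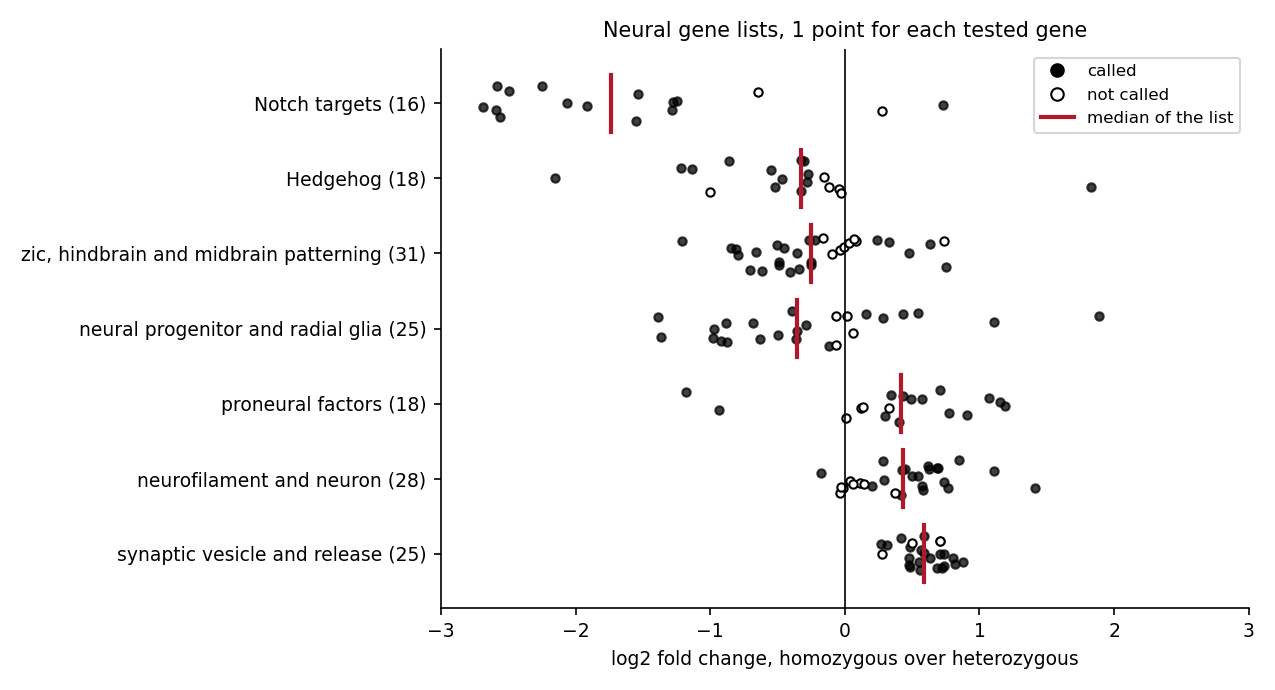
log2 fold change, homozygous over heterozygous, of each tested gene in 7 neural lists (number tested in brackets). Filled points were called, open points were not, and the vertical bars are list medians. Notch targets have their median at -1.73, and the synaptic list at 0.59.

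Genes that pattern the ventral and dorsal neural tube were mostly lower. Of 18 genes of the Hedgehog pathway, which patterns the ventral neural tube and the muscle, 12 were lower and 1 was higher. nkx2.9, a target in the floor of the neural tube, had 2.197, 2.04 and 3.13 CPM in the homozygous pools, against 11.4, 10.5 and 10.4 CPM in the heterozygous pools, and NKX6-2 changed by -1.21. gli1, a transcription factor and target of the pathway, changed by -0.47, and smo, the signal transducer, by -0.52. The ligand gene SHH (ENSDARG00000038867) had 8.45, 8.36 and 8.37 CPM in the homozygous pools, against 9.92, 10.1 and 10.6 CPM in the heterozygous pools, a smaller change of -0.28 ± 0.08 (SE; edgeR adjusted p = 0.00764). The single rise was hhip, an antagonist of the ligand, at 0.985, 1.26 and 1.26 CPM in homozygous and 0.587, 0.236 and 0.145 CPM in heterozygous pools, which was chosen after its values were seen. Of 31 genes of zic factors and of hindbrain and midbrain patterning 18 were lower and 5 higher. zic1, a dorsal neural factor, had 55.4, 54.8 and 61.1 CPM in the homozygous pools, against 102, 102 and 96.4 CPM in the heterozygous pools, and zic4, zic5 and zic6 changed by -0.79, -0.71 and -0.84.

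The oligodendrocyte and Schwann cell list had 3 higher (21.4%) and 6 lower (42.9%) of 14, beside 20.4% and 19.4% of all genes. NKX2-2, a factor of oligodendrocyte precursors and of the ventral neural tube, changed by -0.86. NKX2-2 is a close neighbour of npc2 on its chromosome. mbpb, a myelin basic protein gene, rose by 0.39. SLC6A11, a transporter that takes up the transmitter GABA, had 2.91, 2.92 and 3.55 CPM in the homozygous pools, against 16.1, 15.8 and 16.6 CPM in the heterozygous pools (log2 -2.38 ± 0.10, SE). ABHD6 (ENSDARG00000060756), an enzyme that breaks down endocannabinoids and monoacylglycerols, had 6.25, 6.204 and 7.06 CPM in the homozygous pools, against 50.8, 41.9 and 37.2 CPM in the heterozygous pools (log2 -2.74 ± 0.13, SE).

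Genes of inflammation rose in homozygous pools, 21 of 24 effectors being higher and 1 lower, with a median log2 fold change of 1.67. mmp9, a matrix protease made by leukocytes and injured epithelium, had 264, 283 and 202 CPM in the homozygous pools, against 4.79, 8.104 and 7.09 CPM in the heterozygous pools. The lowest homozygous pool was more than an order of magnitude above the highest heterozygous pool (log2 5.24 ± 0.56, SE; edgeR adjusted p = 0.000437). irg1l, related to the itaconate-making enzyme of immune cells, had 143, 177 and 149.7 CPM in the homozygous pools, against 3.12, 3.38 and 3.58 CPM in the heterozygous pools (log2 5.55 ± 0.13, SE; edgeR adjusted p = 3.93e-10). nfkbiaa, the NF-kappaB inhibitor that NF-kappaB itself induces, had 26.1, 28.99 and 25.9 CPM in the homozygous pools, against 5.53, 6.89 and 6.77 CPM in the heterozygous pools. The homozygous and heterozygous pools did not overlap in any of these. bcl3, another member of that inhibitor family, had 15.24, 13.5 and 12.1 CPM in the homozygous pools, against 0.525, 0.844 and 0.688 CPM in the heterozygous pools. il1b, the cytokine, was scarce but higher in every homozygous pool, at 2.71, 3.55 and 2.52 CPM, against 0.803, 0.675 and 0.507 CPM in heterozygous pools; it was chosen after its values were seen. c3a.1, a complement gene, had 1308, 1307 and 1256 CPM in the homozygous pools, against 767, 782 and 779 CPM in the heterozygous pools, a rise of 0.73 on the log2 scale. The fall was NOS2 (ENSDARG00000031976), an inducible nitric oxide synthase, which had 8.53, 8.61 and 9.49 CPM in the homozygous pools, against 18.95, 19.1 and 20.8 CPM in the heterozygous pools (log2 -1.15 ± 0.08, SE; edgeR adjusted p = 5.42e-09).

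The Jak-Stat3 pathway, through which cytokines of the interleukin-6 family act, rose in 16 and fell in 1 of 23 genes. stat3 had 131, 126 and 125 CPM in the homozygous pools, against 39.4, 41.3 and 42.6 CPM in the heterozygous pools (log2 1.63 ± 0.05, SE; edgeR adjusted p = 6.09e-14). il6st, the shared receptor subunit, had 239, 256 and 235 CPM in the homozygous pools, against 50.4, 61.1 and 50.5 CPM in the heterozygous pools. Its co-receptor gene lifrb rose by 1.43. SOCS3, the feedback inhibitor that Stat3 induces, is represented by a pair of genes that both rose. ENSDARG00000026611 (SOCS3) had 92.3, 88.9 and 80.1 CPM in the homozygous pools, against 11.1, 12.3 and 12.6 CPM in the heterozygous pools, and ENSDARG00000025428 (SOCS3) had 44.03, 41.4 and 29.8 CPM in the homozygous pools, against 1.85, 2.57 and 3.26 CPM in the heterozygous pools. Their log2 fold changes were 2.86 ± 0.08 and 3.92 ± 0.28 (SE).

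Of 24 AP-1 and immediate early genes 14 were higher and 3 lower. fosl2, an AP-1 subunit, had 63.1, 65.7 and 55.7 CPM in the homozygous pools, against 11.9, 12.7 and 11.4 CPM in the heterozygous pools (log2 2.36 ± 0.07, SE; edgeR adjusted p = 6.41e-14). fosl2 is also a close neighbour of npc2 on its chromosome, and the part of the linked haplotype in its rise was not tested. FOS had 76.99, 62.1 and 54.7 CPM in the homozygous pools, against 19.6, 17.6 and 11.3 CPM in the heterozygous pools, JUNB (ENSDARG00000104773) rose by 2.12 and jun had 231, 229 and 223 CPM in the homozygous pools, against 103, 97.96 and 101 CPM in the heterozygous pools. The count of 3 lower fell to 1 without any one of the second heterozygous, the 3 homozygous or the 3 wild-type pools. Interferon response genes were higher in 6 and lower in 0 of 13. isg15, a ubiquitin-like antiviral protein, had 3.196, 4.21 and 2.57 CPM in the homozygous pools, against 0.433, 0.304 and 0.253 CPM in the heterozygous pools, and irf9, a subunit of the interferon-activated factor, had 30.3, 33.96 and 32.04 CPM in the homozygous pools, against 7.6, 8.85 and 8.795 CPM in the heterozygous pools. irf1b, a factor induced by interferon and by Stat signals, had 17.9, 17.6 and 14.3 CPM in the homozygous pools, against 1.05, 1.182 and 0.941 CPM in the heterozygous pools. Its log2 fold change was 3.97 ± 0.91 (SE; edgeR adjusted p = 0.0145), a call that was lost without heterozygous pool 1 (0.0539), 2 (0.0528) or 3 (0.0519) (edgeR adjusted p). The sibling pools of irf1b did not overlap, and their SD was 2.022 CPM in homozygous and 0.1206 CPM in heterozygous pools. The wild-type pools, which entered the same fit, had a mean of 4.204 CPM and an SD of 5.209 CPM. Among them the second pool stood far above the others. The call of irf1b was kept with the 6 sibling libraries alone and without the second wild-type pool. The part of that wild-type spread in the SE and in the lost calls was not tested.

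Of 25 tested markers of macrophages and neutrophils 9 (36%) were higher and 0 lower, beside 20.4% and 19.4% of all genes. The other 16 were not called. The median log2 fold change was 0.25 beside 1.67 for the effectors, and 1 marker was lower without the third heterozygous pool. The whole list of 29 matched markers summed to between 2968 and 3077 CPM in homozygous pools and to between 2931 and 3124 CPM in heterozygous pools, nearly all of it apoeb. Without apoeb the sum was 282 to 298 CPM in homozygous pools and 196 to 215 CPM in heterozygous pools, in which cebpb, a transcription factor that is also induced in inflammation outside leukocytes, had 118, 123.4 and 106 CPM in the homozygous pools, against 47.4, 43.1 and 42.4 CPM in the heterozygous pools. The neutrophil lysozyme gene lyz and 2 further MPEG1 copies had no count in any of the 6 sibling pools. How reads were counted is not known, so these zeros are not read as absence of the transcripts. MPEG1 (ENSDARG00000043093), the perforin-like marker of macrophages, had 2.34, 2.83 and 2.94 CPM in the homozygous pools, against 1.36, 0.844 and 1.38 CPM in the heterozygous pools (log2 1.18 ± 0.26, SE; edgeR adjusted p = 0.00179). csf1ra, the receptor for macrophage growth factor, had 16.8, 17.7 and 18.2 CPM in the homozygous pools, against 14.2, 16.1 and 15.6 CPM in the heterozygous pools (log2 0.20 ± 0.08, SE; edgeR adjusted p = 0.0694), and it was called at 0.0387 without the third wild-type pool (edgeR adjusted p). The part of leukocyte number in the rise of the inflammatory genes was not tested.

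**Figure D5:**
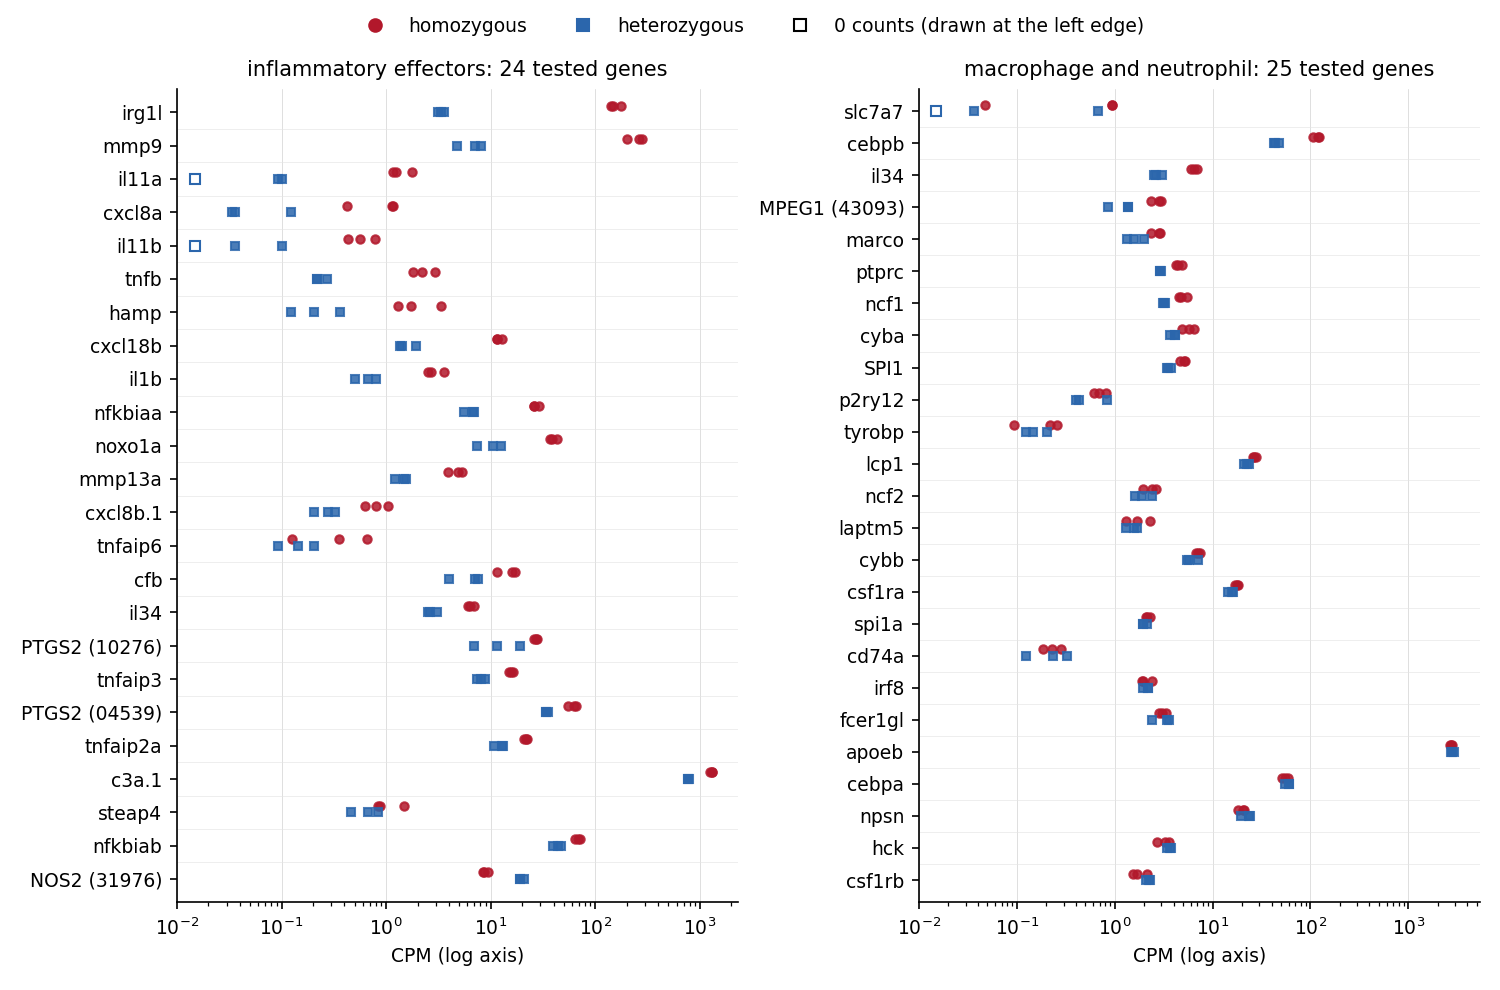
CPM (log axes) of the 24 tested inflammatory effectors and the 25 tested macrophage and neutrophil markers in the 3 homozygous and 3 heterozygous pools, sorted by fold change. Points are pools, open squares at the left edge had 0 counts, and digits in brackets are the end of the gene identifier. Most effectors separate fully, with irg1l and mmp9 the widest apart, whereas many markers overlap.

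Genes of stress programmes rose in part. Of 33 genes of the unfolded protein and integrated stress responses 14 were higher and 5 lower, the 5 becoming 3 without the first homozygous pool. That list summed to 3673, 3694 and 3710 CPM in homozygous and to 3232, 3237 and 3281 CPM in heterozygous pools. Its wild-type sums were 3671, 3661 and 3909 CPM, overlapping the homozygous ones, so that the heterozygous sums lay below both. ddit3, the transcription factor CHOP of unresolved stress, had 61.6, 66.1 and 55.1 CPM in the homozygous pools, against 16.96, 15.4 and 16.4 CPM in the heterozygous pools (log2 1.91 ± 0.07, SE; edgeR adjusted p = 5.51e-13). sesn2, an inhibitor of mTORC1, had 29.2, 30.1 and 25.2 CPM in the homozygous pools, against 8.16, 8.43 and 8.29 CPM in the heterozygous pools, and chac1, which degrades glutathione, had 281, 293 and 235 CPM in the homozygous pools, against 131, 133 and 131 CPM in the heterozygous pools. The chaperone gene hspa5, a core target of the unfolded protein response, had 243, 236 and 269.5 CPM in the homozygous pools, against 242, 247 and 251 CPM in the heterozygous pools, with overlapping pools (log2 0.01 ± 0.06, SE; edgeR adjusted p = 0.888). Of 27 p53 targets 13 were higher and 2 lower, the 2 becoming 1 without the second homozygous pool. bbc3, the pro-apoptotic Puma, had 8.01, 9.33 and 7.197 CPM in the homozygous pools, against 2.26, 1.93 and 2.72 CPM in the heterozygous pools. The growth arrest genes listed as GADD45B rose by 1.18 (ENSDARG00000013576) and 1.32 (ENSDARG00000027744). cdkn1a, the cell cycle inhibitor p21, had 2.83, 2.98 and 2.99 CPM in the homozygous pools, against 3.09, 3.09 and 4.13 CPM in the heterozygous pools, with a log2 fold change of -0.23 ± 0.18 (SE; edgeR adjusted p = 0.345). IGFBP1, a secreted binder of insulin-like growth factors induced by low oxygen and by fasting, had 52, 56.1 and 46.6 CPM in the homozygous pools, against 10.9, 8.61 and 8.98 CPM in the heterozygous pools (log2 2.44 ± 0.12, SE; edgeR adjusted p = 5.96e-08). In ddit3, sesn2, chac1, bbc3 and IGFBP1 every homozygous pool was above every heterozygous pool. ca9, a carbonic anhydrase and classical target of low oxygen, moved the opposite way, with 2.06, 1.54 and 1.59 CPM in the homozygous pools, against 6.97, 5.64 and 6.88 CPM in the heterozygous pools. FTH1, a ferritin subunit that stores iron, had 34.7, 37.4 and 39.2 CPM in the homozygous pools, against 11.4, 11.8 and 13.7 CPM in the heterozygous pools, and cp, the copper-carrying ferroxidase ceruloplasmin, had 188, 197 and 171 CPM in the homozygous pools, against 94.4, 90.5 and 89.5 CPM in the heterozygous pools. NFE2L2, the regulator Nrf2 of the oxidative stress response, rose by 0.86. Its list of 29 targets was split, with 9 higher and 8 lower.

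Genes of cell division and of protein degradation were mostly lower in homozygous pools. DNA replication and division had 36 lower and 0 higher of 49, and the proteasome 29 lower and 0 higher of 36, where 1 was higher without the third homozygous pool. The falls were small, with medians of -0.29 and -0.26. pcna, the sliding clamp of replication, had 813, 804 and 877 CPM in the homozygous pools, against 1076, 1167 and 1175 CPM in the heterozygous pools (log2 -0.45 ± 0.05, SE; edgeR adjusted p = 6.40e-07). mcm3, of the replicative helicase, changed by -0.53, rrm1, which supplies deoxynucleotides, by -0.46 and e2f2, a factor of entry into S phase, by -0.60. psmd12, a lid subunit of the proteasome, had 144, 138 and 142 CPM in the homozygous pools, against 204, 201 and 204 CPM in the heterozygous pools (log2 -0.52 ± 0.04, SE). The replication list summed to 7763, 7634 and 8247 CPM in homozygous pools and to 9424, 9615 and 10040 CPM in heterozygous pools. For the proteasome list the sums were 4229, 4197 and 4372 CPM in homozygous and 5124, 5142 and 5297 CPM in heterozygous pools. The wild-type pools summed to 9001, 8920 and 9066 CPM for replication and to 4328, 4262 and 4458 CPM for the proteasome. The homozygous proteasome sums thus overlapped those of wild type, and the heterozygous sums stood above both. The homozygous replication sums lay below those of both other genotypes. Cytosolic ribosomal protein genes, by contrast, were higher in 6 of 72 and lower in 0, under the background share. That count depended on the pool left out. It was 0 without the first, 1 without the second and 22 without the third heterozygous pool, 2 without the first or the third and 13 without the second homozygous pool, and 16 without the third wild-type pool. Without the first heterozygous pool 1 was lower.

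Among tissues, skeletal muscle was lower in 20 (42.6%) and higher in 7 (14.9%) of 47 genes, beside 19.4% and 20.4% of all genes. Only 4 were higher without the first heterozygous pool. ACTA1 (ENSDARG00000055618), the skeletal actin, had 1634, 1679 and 1661 CPM in the homozygous pools, against 3831, 3768 and 3598 CPM in the heterozygous pools (log2 -1.17 ± 0.04, SE; edgeR adjusted p = 2.55e-13). With its second copy the family summed to 2013, 2051 and 2075 CPM in homozygous pools and to 4423, 4380 and 4193 CPM in heterozygous pools. myhz2, a fast myosin heavy chain, changed less, by -0.32 ± 0.04 (SE). tcap, the titin cap of the Z-disc, went the other way and was among the largest rises, with 60.01, 58.8 and 47.95 CPM in the homozygous pools, against 2.47, 3.38 and 1.85 CPM in the heterozygous pools (log2 4.43 ± 0.19, SE; edgeR adjusted p = 1.86e-07). The heart list was near the background, with 5 (16.7%) higher and 4 (13.3%) lower of 30. Its genes named next are rises, and a fall, actc1a, is given further below. nppa, the atrial natriuretic peptide gene that marks working myocardium, had 13.5, 12.9 and 13.1 CPM in the homozygous pools, against 6.55, 5.302 and 5.21 CPM in the heterozygous pools, a rise of 1.21 ± 0.10 (SE), and nppb, its relative, had 2.14, 2.17 and 2.94 CPM in the homozygous pools, against 0.989, 0.642 and 0.507 CPM in the heterozygous pools.

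In the skin and its ion-transporting cells, 10 of 26 ionocyte genes (38.5%) were lower and 2 (7.69%) higher. The 2 became 1 without heterozygous pool 1 or 2 or homozygous pool 1 or 2. atp1a1a.3, a sodium pump subunit of these cells, had 6.29, 5.84 and 11.7 CPM in the homozygous pools, against 48.5, 51.9 and 54.6 CPM in the heterozygous pools, the third homozygous pool again being the highest (log2 -2.74 ± 0.26, SE; edgeR adjusted p = 0.000225). The 6 atp1a1a identifiers, between which reads can be split, summed to 812, 799 and 826 CPM in homozygous pools and to 887, 896 and 935 CPM in heterozygous pools. slc9a3.2, the sodium-proton exchanger of the acid-secreting ionocytes, was scarce and fell, with 0.171, 0.2199 and 0.327 CPM in the homozygous pools, against 1.39, 1.93 and 2.24 CPM in the heterozygous pools (log2 -2.99 ± 0.28, SE). Epidermal genes were higher in 8 (32%) and lower in 3 (12%) of 25, beside 20.4% and 19.4% of all genes. Of these, 0 were at least 2-fold higher and 1 was at least 2-fold lower. The epidermal genes named here are rises, cldnb, a tight junction protein, by 0.96 and cdh1, E-cadherin, by 0.71. FN1 (ENSDARG00000006526), fibronectin of the extracellular matrix, had 1698, 1789 and 1768 CPM in the homozygous pools, against 440.3, 420.1 and 419 CPM in the heterozygous pools, a 4.11-fold rise (log2 2.04 ± 0.09, SE; edgeR adjusted p = 9.13e-08).

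Collagen genes were mostly lower. Of 28 collagens 17 were lower and 2 higher, and the 2 became 1 without any one of heterozygous pools 2 and 3, the 3 homozygous pools or wild-type pool 1. col17a1a, the hemidesmosomal collagen, had 4.11, 3.83 and 4.07 CPM in the homozygous pools, against 12.5, 9.41 and 12.8 CPM in the heterozygous pools. and3, an actinodin of the fin fold, had 21.9, 22.7 and 22.99 CPM in the homozygous pools, against 60.03, 61.8 and 60.3 CPM in the heterozygous pools (log2 -1.43 ± 0.05, SE). Of 23 fin fold genes 11 (47.8%) were lower and 3 (13%) higher, beside 19.4% and 20.4% of all genes. FN1, given above, is on that list and rose. The list sum was higher in homozygous pools, at 3307, 3417 and 3425 CPM, against 2344, 2336 and 2297 CPM in heterozygous pools. Of 29 inner ear genes 15 (51.7%) were lower and 7 (24.1%) higher, the 7 becoming 4 without the second heterozygous or the second homozygous pool. tecta, a component of the tectorial membrane, had 3.62, 4.45 and 4.16 CPM in the homozygous pools, against 11, 10.6 and 10.4 CPM in the heterozygous pools. col17a1a, and3 and tecta were each lower in every homozygous pool. Of 32 endothelial genes 13 (40.6%) were lower and 8 (25%) higher, beside 19.4% and 20.4% of all genes. Those named next are falls. MRC1, a scavenger receptor of veins and lymphatics, had 27.12, 25.2 and 31.8 CPM in the homozygous pools, against 58.4, 58.9 and 55.9 CPM in the heterozygous pools (log2 -1.05 ± 0.07, SE), and kdrl, a receptor for vascular endothelial growth factor, changed by -0.52. The 7 embryonic globin genes summed to 2545, 2471 and 2490 CPM in homozygous pools and to 2890, 3055 and 2623 CPM in heterozygous pools. The globin sums did not overlap either. Of 12 genes of the hatching gland and yolk layer 6 (50%) were higher and 2 (16.7%) lower, with a median log2 fold change of 0.09. That list summed to 11720, 11570 and 11700 CPM in homozygous and to 10520, 10730 and 10490 CPM in heterozygous pools. Its scarce member he1.3, a hatching enzyme gene, changed far more. he1.3 had 10.9, 8.48 and 12.8 CPM in the homozygous pools, against 1.95, 2.43 and 2.68 CPM in the heterozygous pools, a 4.55-fold rise.

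Several of the largest changes belonged to none of these groups. arf4b, a small GTPase of the family that forms vesicles at the Golgi, had the largest rise among called genes with a symbol and a mean of at least 5 CPM in the higher genotype, with 80.6, 89.8 and 63.1 CPM in the homozygous pools, against 0.433, 0.743 and 0.615 CPM in the heterozygous pools (log2 7.03 ± 0.19, SE; edgeR adjusted p = 9.95e-10). Its level was near 0 in all heterozygous pools and in the wild-type pools, at 0.518, 0.501 and 0.441 CPM. cyb5r2, a cytochrome b5 reductase of the kind that supplies electrons to sterol and fatty acid enzymes, had 31.3, 31.3 and 30.2 CPM in the homozygous pools, against 1.36, 1.22 and 1.16 CPM in the heterozygous pools. In both genes the genotypes were far apart. cyp24a1, the enzyme that inactivates vitamin D, had 39.4, 41.7 and 34.8 CPM in the homozygous pools, against 1.081, 2.53 and 2.64 CPM in the heterozygous pools (log2 4.23 ± 0.27, SE; edgeR adjusted p = 1.47e-05). cyp2r1, which carries out the first step of vitamin D activation and was chosen after its values were seen, had 1.26, 1.67 and 1.59 CPM in the homozygous pools, against 6.06, 4.93 and 5.76 CPM in the heterozygous pools (log2 -1.9 ± 0.15, SE; edgeR adjusted p = 2.16e-08). The vitamin D enzymes thus moved in opposite directions, each without overlap. cbx7a, a Polycomb subunit, had 44.2, 53.02 and 47.7 CPM in the homozygous pools, against 2.41, 4.05 and 2.61 CPM in the heterozygous pools, and chia.6, an acidic chitinase gene, had 10.7, 10.5 and 9.82 CPM in the homozygous pools, against 0.494, 0.608 and 0.471 CPM in the heterozygous pools. Of the largest falls, FOXQ1, a forkhead factor, had 2.45, 1.67 and 1.59 CPM in the homozygous pools, against 16.1, 5.88 and 4.09 CPM in the heterozygous pools, in which the first heterozygous pool stood apart. Its log2 fold change was -2.18, or -1.37 without that pool, and the call was lost without homozygous pool 1 (0.0548), 2 (0.0833) or 3 (0.0736) (edgeR adjusted p).

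The wild-type pools allow the difference between siblings to be set against the difference between heterozygous and wild-type pools. The test asked whether the sibling step, homozygous minus heterozygous, differed from heterozygous minus wild type, and both steps share the heterozygous pools. Heterozygous minus wild type also holds the difference in mother and clutch, so the steps are not the loss of 1 copy each. By edgeR's test 6863 genes (33.7%) were called, 3458 with the sibling step more positive and 3405 with it more negative. For npc2 (NPC2) the sibling step was the more negative, with a difference of -1.08 ± 0.16 on the log2 scale (SE; edgeR adjusted p = 0.00052). For a falling gene, equal losses in CPM at each step also give a more negative sibling step on that scale. The npc2 value therefore does not mean that more transcript was lost at the sibling step. hmgcs1 had 824, 834 and 748 CPM in homozygous, 73.3, 75.3 and 75.99 CPM in heterozygous and 33.9, 33.1 and 36.9 CPM in wild-type pools. Heterozygous pools were thus already above wild type, yet the sibling step was the larger by 2.31 ± 0.10 (SE; edgeR adjusted p = 5.26e-11). srebf2, with 120.3, 124 and 103 CPM in the wild-type pools, had overlapping heterozygous and wild-type pools and a difference between the steps of 2.30 ± 0.11 (SE; edgeR adjusted p = 4.29e-10). For npc1 the steps differed by 0.10 ± 0.08 (SE; edgeR adjusted p = 0.373), and for sqstm1 by 0.08 ± 0.12 (SE; edgeR adjusted p = 0.648), neither being called. Some genes took opposite steps, among them genes of the light-regulated clock. per2, a clock repressor induced by light, had 55.9, 56.5 and 57.8 CPM in homozygous, 83.1, 76.3 and 72.5 CPM in heterozygous and 27.6, 28.5 and 24.4 CPM in wild-type pools, so that homozygous pools lay between the others (difference between the steps -1.97 ± 0.11, SE; edgeR adjusted p = 8.83e-10). The DNA photolyase relative cry5 followed the same order, with 13.1, 12.4 and 13.4, then 18.9, 19.8 and 20.5, then 3.57, 3.27 and 3.16 CPM in homozygous, heterozygous and wild-type pools (difference between the steps -3.17 ± 0.13, SE; edgeR adjusted p = 5.26e-11).

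Because siblings were compared, genes close to npc2 on its chromosome can differ with the haplotype that carries the mutation, and their calls were counted separately. By the gene order of the RefSeq assembly, 15 of the 50 nearest genes (25 on each side) were called, which is 30%, and 38 of the nearest 100 and 82 of the nearest 200. Over all placed genes with a symbol of their own the share was 42.2%, on the chromosome of npc2 38.9% and on the other chromosomes 42.4%. The called neighbours with symbols were dglucy, crim1, prph2la, slc4a1ap, fosl2, mocs1, NKX2-2, isca2, eml5, plk4, rtkn2, OTX2 and naa30. Their log2 fold changes were under 1 in size except for fosl2 (2.36) and prph2la (-1.9). prph2la had under 1 CPM in every sibling pool, and its call was lost without any one of the 3 heterozygous or the first 2 homozygous pools (edgeR adjusted p 0.0529 to 0.102). The calls of eml5 (log2 0.41; without heterozygous pool 3 or homozygous pool 1 or 2) and rtkn2 (-0.21; without the second homozygous pool) were also lost, at edgeR adjusted p between 0.0544 and 0.0735.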

How the data were processed

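Polyadenylated RNA of pooled whole embryos was sequenced. The authors deposited raw read counts per gene for 9 libraries. Per the submitters' processing notes, cutadapt 1.18, HISAT2 2.1.0 and featureCounts 1.6.3 were used with the GRCz11 build. The annotation, the strand setting and how reads were counted were not given in the sources used here, so antisense and near-identical genes are uncertain. Between 96.3% and 97.5% of counts between 1 and 19 were even, so 1 fragment may count as 2. Depth was 38564405 to 69360234 counts per library, at which 3 counts equal 0.0428 to 0.0701 CPM in the homozygous and 0.0463 to 0.0543 CPM in the heterozygous pools. No 2 libraries of a group agreed within sampling noise.

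All 9 libraries entered 1 edgeR 4.0.16 quasi-likelihood fit (R 4.3.3; TMM, filterByExpr, robust) without covariates, with Benjamini-Hochberg adjustment over 20375 of 32520 genes. The contrast was homozygous minus heterozygous. An SE is the log2 change over the root of F and is approximate. DESeq2 1.42.0, limma-voom 3.58.1 and 16 other settings were alternatives, and the fit was tested on simulated data. Lists and members were chosen with earlier results of these data known. Named are the first 3 and up to 6 called members (lowest p) of each list, the 15 largest rises and falls without overlap and with at least 5 CPM in the higher genotype, npc1, and called neighbours of npc2. Names not covered by that rule (further cholesterol synthesis genes, scap, ldlra, apoeb and those said to be so in the text) were chosen after their values were seen. RefSeq (GRCz12tu) served for names and gene order only. Some members of the lists are counted but not reported by name here.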

Additional observations from a re-analysis of the deposited data

How the results depend on the processing

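All main counts kept within 1.5 times under all 18 alternatives. Genes higher numbered 3544 to 4322 and lower 3192 to 4160 when 1 library was left out, 4008 and 4134 with DESeq2, 4276 and 3988 with limma-voom, and 4295 and 4038 with the 6 sibling libraries alone, which give no difference between steps. The log2 change of npc2 ran between -2.1 and -1.88 with 1 library left out. Same-numbered siblings had correlations of their deviations from the group means of 0.0565, 0.0565 and 0.0848, so the numbers were not taken as pairs, although each library correlated best with its own number. With the replicate block 4160 genes were higher and 4004 lower, 717 and 243 of them at least 2-fold, npc2 changed by -1.98, and the difference between steps was called in 3469 and 3421 genes. Of 410 called genes followed through the alternatives, 378 kept the call in every alternative that tested them. Another 32 lost the call in at least 1, and 0 reversed. Not all 410 were tested in each alternative, for example 407 with the filter of 1 CPM in 3 libraries. ATP6V1B2, whose lost calls are given above, was not among the 410. Of 116 list counts 88 stayed within 1.5 times. The value that changed sign was that of an uncalled gene with 1 library left out, NPC2 (ENSDARG00000096979) at -0.48 to 0.12. The cause was not tested. Genes under 1 CPM in at least 1 genotype, such as npc1l1, soat2 and ctsbb, give folds that depend on the low counts in that genotype.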

Other observations

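Further signalling lists moved in both directions, to be read beside 20.4% higher and 19.4% lower of all genes. Of 15 Wnt targets 7 (46.7%) were lower and 2 (13.3%) higher, or 1 higher without homozygous pool 2 or 3. Among the lower were the feedback inhibitors axin2 (log2 -0.52 ± 0.05, SE) and nkd1 (log2 -0.71 ± 0.06, SE). Of 18 Fgf feedback genes 8 (44.4%) were higher, or 5 without the third heterozygous pool, and 3 (16.7%) lower. spry4, an inhibitor induced by Fgf, had 95.96, 95.3 and 89.6 CPM in the homozygous pools, against 56.8, 58.9 and 60.2 CPM in the heterozygous pools (log2 0.68 ± 0.05, SE; edgeR adjusted p = 1.57e-08). Of 20 Bmp targets 8 (40%) were lower and 3 (15%) higher. msx3, a homeobox gene of the dorsal neural tube, had 23.1, 22.5 and 26.8 CPM in the homozygous pools, against 49.2, 50.1 and 51.2 CPM in the heterozygous pools (log2 -1.06 ± 0.06, SE), and chrd, the Bmp antagonist, rose by 0.93. Of 41 Hox genes 13 (31.7%) were lower, or 7 without the second heterozygous pool. Another 2 (4.88%) were higher, or 1 without the first heterozygous or the first homozygous pool.

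Metabolic genes moved in both directions, to be read beside 20.4% higher and 19.4% lower of all genes. Glycolysis had 12 higher (41.4%) and 7 lower (24.1%) of 29. eno2, the neuronal enolase, rose by 0.76 ± 0.06 (SE), whereas ALDOA (ENSDARG00000034470), the muscle aldolase, changed by -0.34 ± 0.04 (SE). Gluconeogenesis had 7 higher (38.9%) and 4 lower (22.2%) of 18. g6pc1a.1, which releases glucose, had 7.06, 6.66 and 6.59 CPM in the homozygous pools, against 1.699, 1.42 and 1.85 CPM in the heterozygous pools (log2 2.03 ± 0.13, SE; edgeR adjusted p = 2.36e-09). The adaptors of the insulin receptor listed as IRS2 (ENSDARG00000037099 and ENSDARG00000075282) both rose by 0.92. Of 34 genes of the response to low oxygen 12 (35.3%) were higher and 5 (14.7%) lower. PFKFB4, a regulator of glycolysis, rose by 1.27.

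Among further tissues, 9 of 29 pigment cell genes (31%) were lower and 4 (13.8%) higher, beside 19.4% and 20.4% of all genes. xdh, an enzyme of the pteridine pigments of xanthophores, had 8.45, 9.27 and 9.86 CPM in the homozygous pools, against 18.6, 18.8 and 17.7 CPM in the heterozygous pools (log2 -1.0 ± 0.08, SE; edgeR adjusted p = 1.59e-08). Mural cell genes had 6 higher (25%) and 9 lower (37.5%) of 24, cd248b rising by 0.52 and foxf2a changing by -0.74. In the heart list actc1a changed by -0.37 ± 0.04 (SE). Of 24 cartilage and notochord genes 10 (41.7%) were lower and 4 (16.7%) higher, with a median log2 fold change of -0.21. The 4 became 1 without heterozygous pool 1 and 2 without heterozygous pool 3 or homozygous pool 2. CCN2, a rising member of that list and a matricellular protein of the notochord, had 9.96, 10.9 and 10.8 CPM in the homozygous pools, against 5.87, 5.57 and 5.36 CPM in the heterozygous pools (log2 0.91 ± 0.10, SE). Of 23 tailbud and segmentation genes 8 (34.8%) were lower and 6 (26.1%) higher, 1 and 2 of them at least 2-fold. EVX1, a homeobox gene of the tailbud, had 5.79, 5.09 and 4.58 CPM in the homozygous pools, against 2.904, 2.26 and 2.46 CPM in the heterozygous pools. tbx16l, a factor of presomitic mesoderm, had 3.48, 3.204 and 2.85 CPM in the homozygous pools, against 6.86, 6.84 and 6.52 CPM in the heterozygous pools. Of 28 retina genes 6 were lower, close to the 19.4% of all genes, and 1 was higher, or 2 without the first heterozygous pool. Of 25 heat shock genes 9 (36%) were lower, or 3 without the first and 4 without the second homozygous pool, and 5 (20%) higher. Its 2 changes of at least 2-fold were both rises.

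The following genes lie outside the rule for named genes and were chosen after their values were seen. mt-atp8 had 4.71, 4.15 and 2.62 CPM in the homozygous pools, against 39.5, 36.9 and 3.29 CPM in the heterozygous pools and 19.5, 34.2 and 32.8 CPM in the wild-type pools. The third heterozygous pool stood with the homozygous pools, and the gene was not called (log2 -2.77 ± 0.89, SE; edgeR adjusted p = 0.0504), but was called without that pool (-3.28, edgeR adjusted p = 0.000816). hint1 had 0.243, 0.0314 and 0.1402 CPM in the homozygous pools, against 9.05, 9.02 and 0.217 CPM in the heterozygous pools and 0.207, 0.09397 and 0.0735 CPM in the wild-type pools, so that 2 of the 9 pools, both heterozygous, held nearly all of its counts (edgeR adjusted p = 0.0256). A trio of genes named after 1 clone was higher in homozygous pools. si:ch211-153b23.3 had 62.1, 76.5 and 61.3 CPM in the homozygous pools, against 1.92, 2.09 and 2.17 CPM in the heterozygous pools. si:ch211-153b23.4 had 80.4, 91.9 and 71.1 CPM in the homozygous pools, against 7.97, 5.64 and 6.44 CPM in the heterozygous pools. si:ch211-153b23.5 had 172, 199.7 and 162 CPM in the homozygous pools, against 13.7, 16.2 and 15.8 CPM in the heterozygous pools. In each the lowest homozygous pool was far above the highest heterozygous pool.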
